A study of Homo sapiens with 4 samples.

Results

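The genes described here encode 28 enzymes that build cholesterol and fatty acids. They were taken as the rows of the deposited gene tables whose symbol is on a list of such enzymes, and all 28 were found among 39261 genes. They were split by pathway step into 9 genes from acetyl-CoA to squalene (the mevalonate step), 10 genes from squalene to cholesterol (post-squalene) and 9 genes that make, desaturate or elongate fatty acids.

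RNA was sequenced from 4 cultures of human breast cancer cells that had been transduced with lentivirus, and each culture gave 1 library. The mesenchymal, triple-negative line MDA-MB-231 carried either a TMEM126A knockdown construct or the control vector sh-NC, and was grown in L15 with 10% FBS. MCF10-Ca1a (Ca1a), a tumour-forming derivative of the MCF10A mammary epithelial line, was given a construct to overexpress TMEM126A or the control vector pCDH. Its medium was DMEM/F12 with 5% horse serum, 10 µg/ml insulin, 20 ng/ml EGF, 100 ng/ml cholera toxin and 0.5 µg/ml hydrocortisone. TMEM126A is a protein of the inner mitochondrial membrane, where it helps to assemble respiratory complex I. The sources used here do not say whether each culture was a clone or a pool.

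Each library held 20673373 to 21405193 reads. TMEM126A followed the labels, at 22.9 normalized counts (reads scaled by a size factor per library) with the knockdown and 559 with sh-NC, and at 9381 with overexpression and 265 with pCDH. The lines matched their markers in most respects, with the epithelial gene CDH1 at 73.6 FPKM (a level per transcript length and depth) in the Ca1a control and 0.203 in the MDA-MB-231 control, and the mesenchymal gene ZEB1 at 0.132 and 8.31 FPKM. The mesenchymal marker CDH2 stood at only 0.185 FPKM in the MDA-MB-231 control. All 12 markers of fibroblasts, immune cells, endothelium and adipocytes were under 2 FPKM in every library. No group had a replicate, so conditions could not be tested against each other. Intervals below are 95% counting intervals, which leave out any difference between cultures that is unrelated to TMEM126A. In bulk RNA, fewer cells of a type and less RNA per cell cannot be told apart.

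Cells make sterols from cytosolic acetyl-CoA through mevalonate and squalene, and the same acetyl-CoA is carboxylated and extended into fatty acids. The transcription factors SREBP-1 and SREBP-2, encoded by SREBF1 and SREBF2, turn on most of these genes after SCAP has carried them out of the endoplasmic reticulum and MBTPS1 and MBTPS2 have cut them. Sterols hold SCAP back by binding it to INSIG1 or INSIG2, so the pathway is under feedback by its product. On promoters, SREBPs act together with NF-Y, which binds the sequence CCAAT, and with Sp1.

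Promoter windows of 300 bases (250 before to 50 after the RefSeq start, GRCh38.p14) were on hand for 24 of the 28 members, 36 windows in all. The CCAAT letters, read on both strands, were in a window of 20 of these 24 genes (83.3%), against 39.7% of 27305 genes in the whole table. The Sp1 letters GGGCGG were in windows of 22 of them (91.7%), against 48.3% of all genes. A gene counted when any of its windows matched, which favours genes with more windows. By window, CCAAT was in 24 of the 36 member windows, against 34.6% of all 35116 windows. GGGCGG was in 30 of the 36, against 45.0%. The member windows were also richer in G and C, with a median of 66.5% against 58.7%, which was not accounted for. The letters TCACNCCAC, one form of a sterol response element, were in windows of 0 of the 24 members and 1.39% of all genes, and the E-box CACGTG was in windows of 3 members (12.5%) and 8.77% of all genes. None of the 4 motifs contains another, and a match is only a description of the window.

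The stretch upstream of every annotated start in the window is shown for 4 genes that hold a CCAAT box: the member of each step that was highest above its control in the overexpression library among those with such a window (HMGCS1, LSS and ACLY), and SCD, the most abundant member in Ca1a. They were chosen after their values were seen. Capitals mark CCAAT or its reverse complement ATTGG, and each sequence reads 5′ to 3′ on the strand of the gene.
HMGCS1, chr5:43313513-43313662, minus strand: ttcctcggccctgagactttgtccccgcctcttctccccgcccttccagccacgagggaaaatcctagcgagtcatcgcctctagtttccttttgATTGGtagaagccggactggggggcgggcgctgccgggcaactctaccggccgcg
LSS, chr21:46228825-46229024, minus strand: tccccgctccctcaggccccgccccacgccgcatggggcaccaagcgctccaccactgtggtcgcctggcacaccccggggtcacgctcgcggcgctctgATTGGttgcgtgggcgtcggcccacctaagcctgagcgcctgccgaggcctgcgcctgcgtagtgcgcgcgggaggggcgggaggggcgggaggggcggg
ACLY, chr17:41919023-41919272, minus strand: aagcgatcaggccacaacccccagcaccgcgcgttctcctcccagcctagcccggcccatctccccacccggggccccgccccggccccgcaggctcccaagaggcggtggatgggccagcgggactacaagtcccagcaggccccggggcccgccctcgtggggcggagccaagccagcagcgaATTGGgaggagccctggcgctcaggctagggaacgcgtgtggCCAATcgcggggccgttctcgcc
SCD, chr10:100346983-100347123, plus strand: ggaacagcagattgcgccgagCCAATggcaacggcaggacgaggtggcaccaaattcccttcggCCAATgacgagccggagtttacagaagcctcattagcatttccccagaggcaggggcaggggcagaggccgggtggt
The first base of the box lay 155 bases before the RefSeq start in HMGCS1 and 150 in LSS. ACLY had 2 boxes, 65 and 23 bases before it, and SCD had 2, at 229 and 186 bases.

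The first comparison set the 2 control cultures side by side, at FPKM levels. Sterol and fatty acid enzymes stood far higher in Ca1a than in MDA-MB-231. The 28 members summed to 2726 FPKM in the Ca1a control, or 0.875% of all FPKM, and to 538 FPKM in the MDA-MB-231 control, or 0.180%. Line, vector and medium differed together here, so they cannot be told apart. Of 27 members with a mean of at least 1 FPKM, 16 (59.3%) were at least 2-fold higher in Ca1a, against 12.9% of the 11363 genes that passed the same filter. Another 3 members were at least 2-fold higher in MDA-MB-231, against a background of 24.4%. The median log2 ratio of MDA-MB-231 over Ca1a was -1.52 over the members and 0.28 over all genes tested. With the median of all genes set to 0 in place of 0.28, 18 members were higher in Ca1a and 2 in MDA-MB-231, and the calls over all genes went from 2774 higher in MDA-MB-231 and 1471 in Ca1a to 2115 and 1994.

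**Figure D1:**
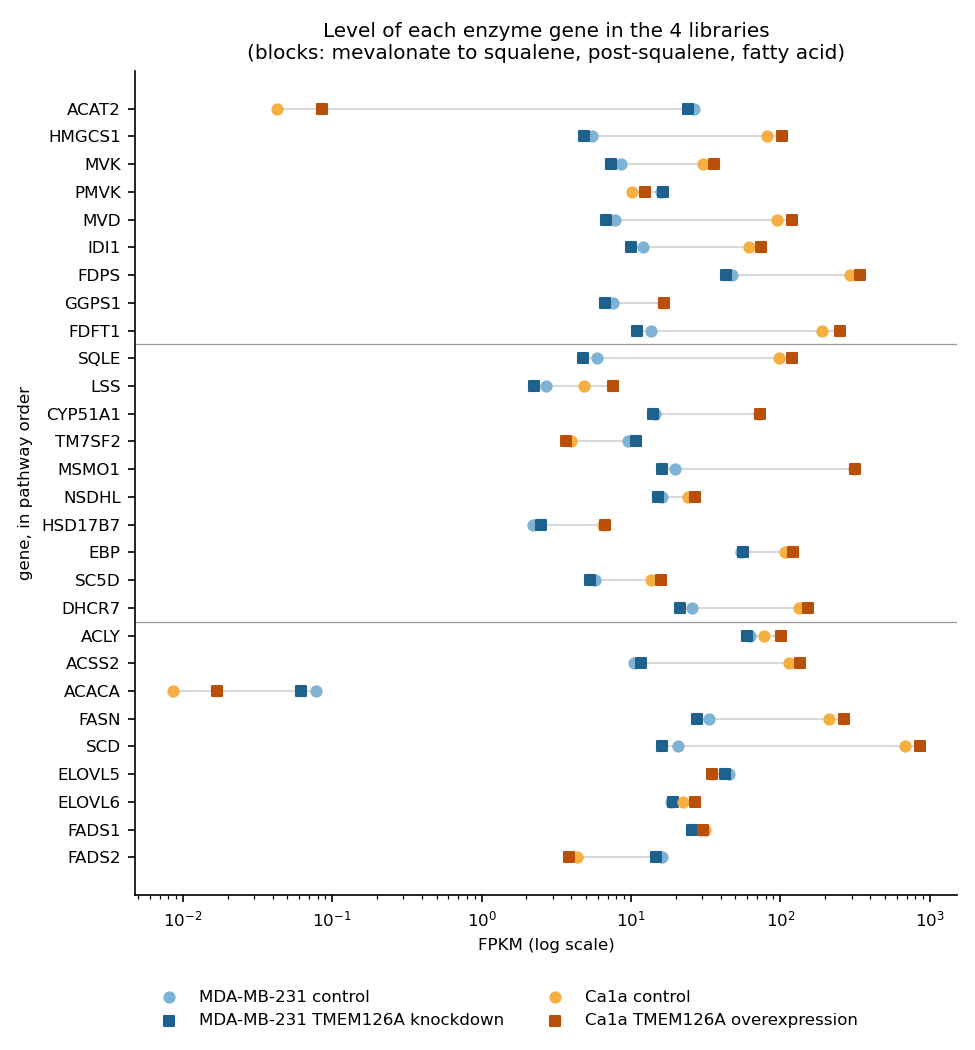
FPKM (log scale) of each of the 28 enzyme genes in the 4 libraries, with circles for control vectors, squares for TMEM126A constructs, blue for MDA-MB-231 and orange for Ca1a. The 2 lines lie apart for most genes, SCD reaches 856 FPKM, and ACAT2 is near 0 in Ca1a alone while ACACA is near 0 in every library.

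Of the 9 genes of the mevalonate step, 7 were at least 2-fold higher in Ca1a, against 12.9% of all genes. HMGCS1, which makes HMG-CoA, stood at 81.6 FPKM in the Ca1a control and 5.47 in the MDA-MB-231 control, 14.9-fold apart. FDFT1, the squalene synthase at the branch into sterols, stood at 190 and 13.6 FPKM, 14.0-fold apart. MVD, which decarboxylates mevalonate diphosphate, stood at 95.3 and 7.80 FPKM, 12.2-fold apart. The prenyl-chain enzymes in the middle of the route differed less. FDPS, the farnesyl diphosphate synthase and the most abundant member of this step in both lines, stood at 291 and 47.5 FPKM (6.11-fold), and the isomerase IDI1 at 61.4 and 12.1 FPKM (5.09-fold). The kinase MVK was 3.58-fold higher in Ca1a, and GGPS1, which leads to prenyl groups for proteins and not to sterols, 2.16-fold. The kinase PMVK did not follow, at 10.1 FPKM in the Ca1a control and 15.8 in the MDA-MB-231 control. GGPS1 overlaps TBCE on the same strand over 15963 bases in the annotation. TBCE was listed at 0 in every library, and the effect of this overlap on GGPS1 was not tested.

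ACAT2, the cytosolic thiolase that joins 2 acetyl-CoA in the entry reaction, was at the other extreme. It had 1373 normalized counts in the MDA-MB-231 control and 1251 in the knockdown library, but 2 reads in the Ca1a control and 5 in the overexpression library. Per total reads, the MDA-MB-231 control was 703-fold higher than the Ca1a control (194 to 5813), a ratio that rests on 2 reads. ACAT2 lies on chromosome 6 from 159760328 to 159779055 (GRCh38, plus strand), and its last 558 bases overlap TCP1 on the other strand. The nearest 2 neighbours on each side were read in both lines. TCP1 had 6928 normalized counts in the Ca1a control and 4801 in the MDA-MB-231 control, WTAP 1627 and 1751, MRPL18 1258 and 963, and SOD2 1015 and 3579. Of the 8 nearest protein-coding neighbours in the tables, 3 (TAGAP, FNDC1 and MAS1) were listed at 0 in every library. PNLDC1 had at most 1.01 normalized counts. ACAT1, the mitochondrial relative of ACAT2, stood at 39.0 FPKM in the Ca1a control and 45.7 in the MDA-MB-231 control. Both Ca1a libraries were low for ACAT2 and both MDA-MB-231 libraries high, and the cause was not tested. The libraries of a line are a control and a TMEM126A construct, so they are not replicates.

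**Figure D2:**
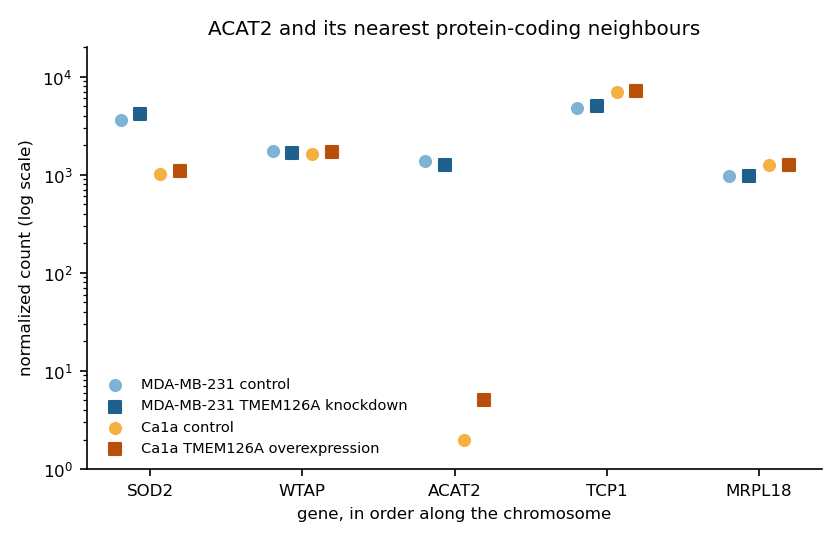
Normalized count (log scale) of ACAT2 and the 2 protein-coding genes of the tables on each side of it, in order along the chromosome, with circles for control vectors and squares for TMEM126A constructs. ACAT2 is at 2 and 5 in the Ca1a libraries, while its 4 neighbours stay at 960 or above in all 4 libraries. Counts of the 2 lines were scaled separately.

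After squalene, 6 of 10 genes were at least 2-fold higher in Ca1a, against 12.9% of all genes. SQLE, the squalene epoxidase, stood at 97.5 FPKM in the Ca1a control and 5.90 in the MDA-MB-231 control, 16.5-fold apart, and MSMO1, a methyl sterol oxidase, at 311 and 19.7 FPKM, 15.8-fold apart. DHCR7, which makes cholesterol from 7-dehydrocholesterol, was 5.19-fold higher, at 134 against 25.7 FPKM, and the lanosterol demethylase CYP51A1 4.96-fold, at 72.2 against 14.5 FPKM. HSD17B7, a 3-ketosteroid reductase, was 2.95-fold higher and the desaturase SC5D 2.36-fold. The level of HSD17B7 is uncertain, because it has a near-identical pseudogene. Another 3 genes were higher in Ca1a by less than 2-fold: EBP, a sterol isomerase, 1.96-fold, the lanosterol synthase LSS 1.79-fold and the dehydrogenase NSDHL 1.49-fold. TM7SF2, a sterol reductase, was the exception, at 9.49 FPKM in the MDA-MB-231 control and 3.98 in the Ca1a control, 2.39-fold higher in MDA-MB-231. LSS thus differed far less between the lines than SQLE before it and MSMO1 after it in the route.

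Among the fatty acid genes the difference was held by a few members. SCD, the desaturase that makes oleate and palmitoleate, stood at 678 FPKM in the Ca1a control and 20.7 in the MDA-MB-231 control, 32.7-fold apart and the largest FPKM ratio in favour of Ca1a among the 28. It alone made up 57.7% of the FPKM of its step in the Ca1a control. ACSS2, which makes acetyl-CoA from acetate, stood at 114 and 10.5 FPKM (10.9-fold), and FASN, the fatty acid synthase, at 212 and 33.4 FPKM (6.35-fold). ACLY, which makes acetyl-CoA from citrate, was the most abundant member in MDA-MB-231 and close in both lines, at 77.2 FPKM in the Ca1a control and 62.6 in the MDA-MB-231 control. The elongases and one desaturase were also close, with 34.7 and 45.0 FPKM for ELOVL5, 22.3 and 18.5 for ELOVL6 and 31.3 and 29.2 for FADS1. FADS2, the delta-6 desaturase next to FADS1, stood at 4.36 FPKM in the Ca1a control and 16.2 in the MDA-MB-231 control, 3.72-fold higher in MDA-MB-231. The ratio of FADS1 to FADS2 was therefore 7.17 in the Ca1a control and 1.80 in the MDA-MB-231 control. FADS1 and FADS2 lie on opposite strands and overlap over 29694 bases in the annotation, and the sources used here give no strand setting for the counting, so their reads may be split. FADS2 also overlaps FEN1, a nuclease gene, on the same strand over 4265 bases. FEN1 stood at 63.9 FPKM in the MDA-MB-231 control and 9.70 in the Ca1a control, the same direction as FADS2, and its part in the FADS2 difference was not tested. Summed over the step, the Ca1a control was 4.97-fold above the MDA-MB-231 control, or 2.30-fold above it without SCD.

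**Figure D3:**
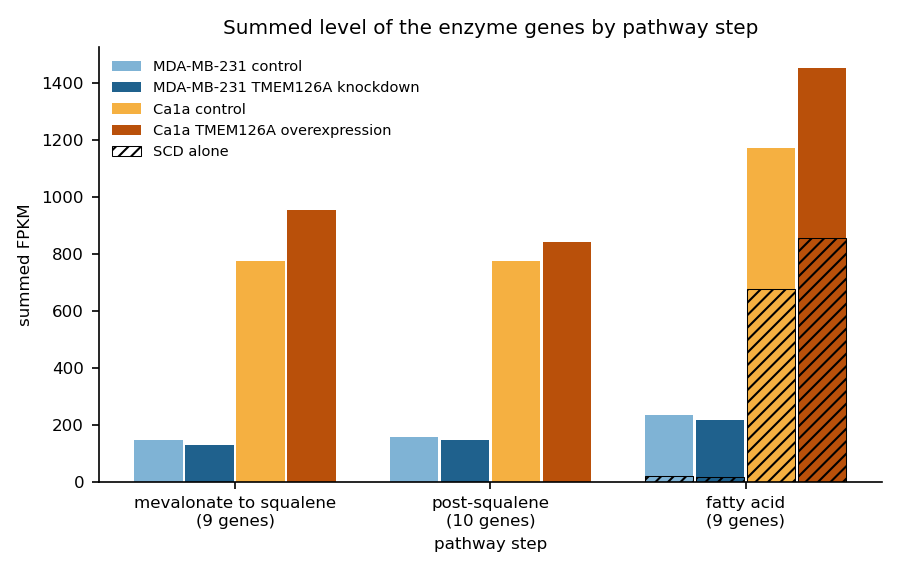
Summed FPKM of the enzyme genes of each pathway step in the 4 libraries, with SCD hatched. The Ca1a control reaches 776, 776 and 1174 FPKM in the mevalonate, post-squalene and fatty acid steps against 145, 157 and 236 in the MDA-MB-231 control, and the overexpression library stands above its control in each step.

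ACACA, the acetyl-CoA carboxylase of fatty acid synthesis, had 50.3 normalized counts in the MDA-MB-231 control, 45.7 in the knockdown library, 54.0 in the Ca1a control and 57.0 in the overexpression library, or under 0.1 FPKM in each. It lies on chromosome 17 from 37084988 to 37406818 (GRCh38, minus strand). Of its 8 nearest protein-coding neighbours in the tables, 5 were listed at 0 in every library, among them AATF and SYNRG, which cells use widely. For ACACA the 2 measures also differed between the controls. Per total reads the log2 ratio of MDA-MB-231 over Ca1a was -0.07. FPKM was 0.0783 in the MDA-MB-231 control and 0.00858 in the Ca1a control, 9.12-fold apart. The low level may not be a measure of ACACA RNA. Neither this nor the cause of the low level was tested. Its mitochondrial relative ACACB had 161 normalized counts in the MDA-MB-231 control and was listed at 0 in both Ca1a libraries.

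The regulators of the pathway differed in the same direction in part. Of 7 genes of the SREBP machinery, 3 were at least 2-fold higher in Ca1a, against 12.9% of all genes, and 4 differed by less. SREBF1 stood at 71.1 FPKM in the Ca1a control and 12.6 in the MDA-MB-231 control (5.65-fold), SREBF2 at 66.5 and 14.6 FPKM (4.57-fold) and INSIG1 at 96.9 and 13.9 FPKM (6.96-fold). SCAP, INSIG2, MBTPS1 and MBTPS2 differed by less than 2-fold. Of 17 other lipid synthesis genes that passed the filter, 7 were at least 2-fold higher in Ca1a, against the same 12.9%, and 1 in MDA-MB-231, against 24.4%. The malic enzyme ME1 stood at 46.9 FPKM in the Ca1a control and 6.56 in the MDA-MB-231 control (7.14-fold) and the acyl-CoA synthetase ACSL3 at 87.3 and 17.6 FPKM (4.95-fold). SCD5, the second stearoyl-CoA desaturase, was the one higher in MDA-MB-231, at 5.41 against 0.858 FPKM (6.30-fold). SCD was thus 790 times the level of SCD5 in the Ca1a control and 3.84 times in the MDA-MB-231 control.

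The second comparison set the enzymes of the TMEM126A knockdown against those of sh-NC in MDA-MB-231. Most were slightly lower in the knockdown library and none was higher by 1.2-fold. SCD was lowest, at 1.26-fold below its control, followed by SQLE, MSMO1 and IDI1. A member was called when it differed by at least 1.2-fold with an interval that left out a ratio of 1 and a mean of at least 20 normalized counts. By this rule 4 of 28 members (14.3%) were lower, against 3.38% of the 13292 genes tested, and 0 were higher, against 5.31%. By the interval alone 13 members were lower, against 11.3% of all genes, 1 was higher (ACSS2), against 16.8%, and 14 lay within counting error. The median log2 ratio was -0.12 over the members and 0.01 over all genes, and 22 members (78.6%) lay below a ratio of 1 against 46.1% of all genes. Over all genes the calls were 706 higher and 449 lower, which became 550 and 601 with scaling by total reads. The members called lower numbered 6 with that scaling, against 4.52% of all genes, and 7 in FPKM, against 6.88%. DHCR7 and FASN were added in both and FDFT1 in FPKM alone.

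In the mevalonate step the median log2 ratio of the knockdown was -0.16, with 8 of 9 genes below a ratio of 1. IDI1 had 1226 normalized counts with the knockdown and 1472 with sh-NC, 1.2-fold lower (1.11 to 1.30), which is just past the rule and was not called with a pseudocount of 5. FDFT1 had 1466 and 1719 counts, 1.17-fold lower (1.09 to 1.26). HMGCS1 had 814 and 928 counts, 1.14-fold lower (1.04 to 1.25). FDPS and ACAT2 were lower by 1.07-fold and 1.1-fold, both with intervals that left out 1, and MVK by 1.16-fold. MVD and GGPS1 lay within counting error, as did PMVK, the only gene of the step above its control, at 744 and 727 counts.

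After squalene the median was -0.08, and 2 of 10 genes were called lower, against 3.38% of all genes. SQLE had 402 normalized counts with the knockdown and 499 with sh-NC, 1.24-fold lower (1.09 to 1.42). MSMO1 had 981 and 1200 counts, 1.22-fold lower (1.12 to 1.33). DHCR7, just short of the rule, had 1224 and 1457 counts, 1.19-fold lower (1.1 to 1.28). The other 7 lay within counting error, from LSS at a ratio of 0.877 (0.752 to 1.02) to HSD17B7 at 1.12 (0.904 to 1.40). HSD17B7 has a near-identical pseudogene, so its counts are uncertain.

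In the fatty acid step the median was -0.10. SCD had 2244 normalized counts with the knockdown and 2827 with sh-NC, 1.26-fold lower (1.19 to 1.33). FASN had 4861 and 5725 counts, 1.18-fold lower (1.13 to 1.22), and FADS1 3497 and 3940 counts, 1.13-fold lower (1.08 to 1.18). ELOVL5 was lower by 1.05-fold (1.01 to 1.09). ACSS2 went the other way, with 1317 and 1211 counts, a ratio of 1.09. ACLY, FADS2, ELOVL6 and ACACA lay within counting error. Among the genes of this step below a ratio of 1, ACLY was closest to 1, at 0.972 and within counting error. SCD was furthest from it, at 0.794.

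INSIG1 and SREBF2 stood further below sh-NC than any of the 28 enzymes. INSIG1 had 694 normalized counts with the knockdown and 1048 with sh-NC, 1.51-fold lower (1.37 to 1.67). SREBF2 had 1586 and 2295 counts, 1.45-fold lower (1.36 to 1.54). The other 5 genes of the SREBP machinery were not called, so that 2 of 7 were lower, against 3.38% of all genes. SREBF1 stood at a ratio of 1.11 (1.04 to 1.2) and was above SREBF2 in the knockdown library, at 14.3 against 9.76 FPKM, while it was below it in the control, at 12.6 against 14.6 FPKM. Of 18 other lipid synthesis genes 0 were called lower, against 3.38% of all genes, and 1 was called higher, a share near the 5.31% of all genes. That gene was SCD5, with 672 counts with the knockdown and 532 with sh-NC, 1.26-fold higher (1.12 to 1.42). The FPKM ratio of SCD to SCD5 was 3.84 in the control and 2.45 in the knockdown library.

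**Figure D4:**
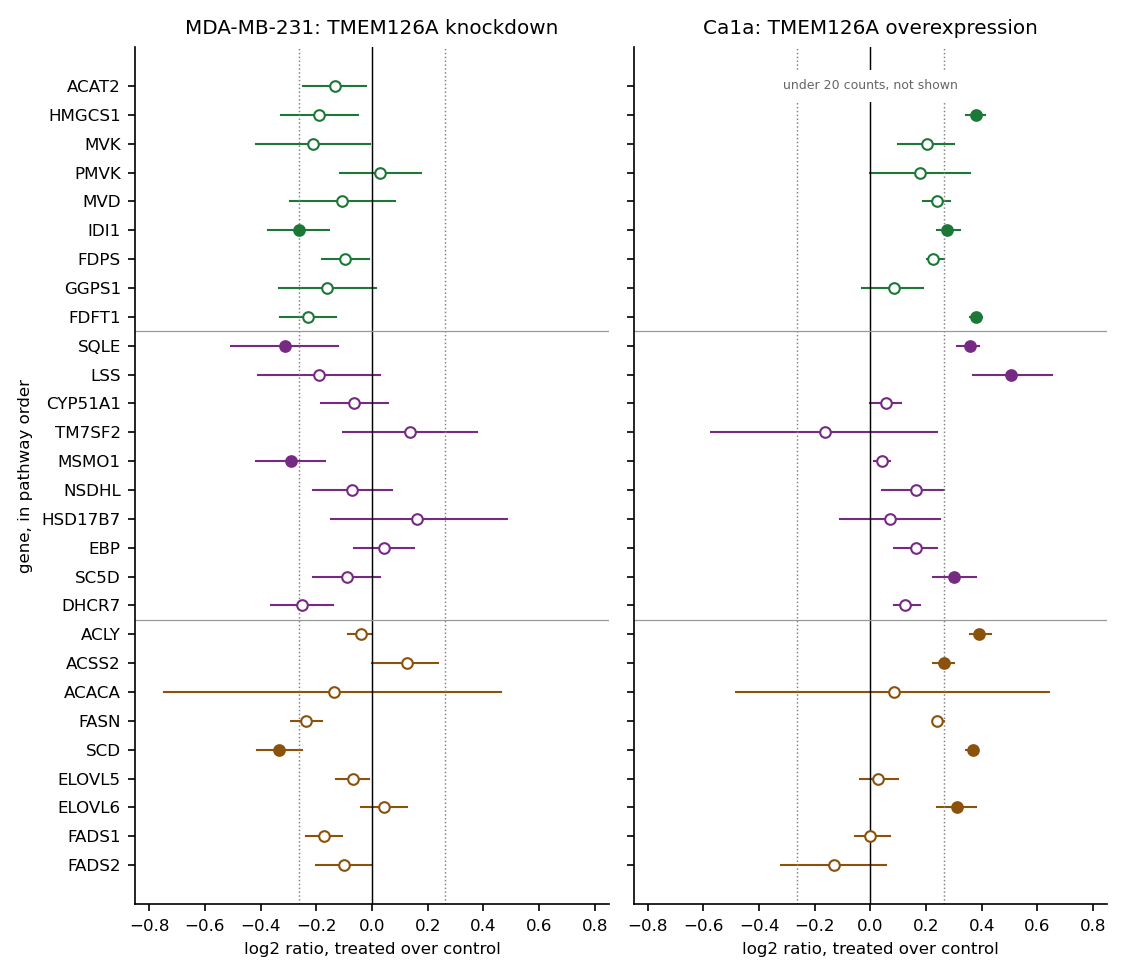
Log2 ratio of treated over control normalized counts for each enzyme gene, in the knockdown comparison (left) and the overexpression comparison (right), with bars for the 95% counting interval, dotted lines at 1.2-fold and filled points for genes called by the rule of size. Filled points lie to the left for 4 genes in the knockdown and to the right for 10 genes in the overexpression.

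The third comparison set TMEM126A overexpression against pCDH in Ca1a. Here most were higher in the overexpression library, led by LSS at 1.42-fold, ACLY at 1.31-fold, and HMGCS1 and FDFT1 at 1.30-fold. Of 27 members tested 10 (37.0%) were called higher, against 5.74% of the 12111 genes tested, and 0 were called lower, against 5.93%. By the interval alone 19 members were higher, against 18.1% of all genes, 0 were lower, against 16.2%, and 8 lay within counting error. The median log2 ratio was 0.20 over the members and 0.01 over all genes, and 25 members (92.6%) lay above a ratio of 1 against 51.5% of all genes. ACAT2, with 5 and 2 reads, was left out by the filter. Summed FPKM of the 28 members was 3254 in the overexpression library against 2726 in its control, a ratio of 1.19.

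In the mevalonate step all 8 genes tested were above their control, with a median log2 ratio of 0.23. HMGCS1 had 16968 counts with overexpression and 13031 with pCDH, 1.30-fold higher (1.27 to 1.33). FDFT1 had 32447 and 24952 counts, 1.30-fold higher (1.28 to 1.32). IDI1 had 8850 and 7284 counts, 1.21-fold higher (1.18 to 1.25). Just short of the rule, MVD stood at 7637 and 6463 counts, a ratio of 1.18 (1.14 to 1.22), and FDPS at 18561 and 15848 counts, a ratio of 1.17 (1.15 to 1.2). MVK was at 1.15 (1.07 to 1.23), while GGPS1 and PMVK lay within counting error.

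After squalene the median was 0.14 and 3 of 10 genes were called higher, against 5.74% of all genes. LSS, which closes squalene epoxide into lanosterol, had 1007 counts with overexpression and 708 with pCDH, 1.42-fold higher (1.29 to 1.57), the highest ratio among the 27 members tested. SQLE, the step before it, had 10545 and 8268 counts, 1.28-fold higher (1.24 to 1.31). SC5D, which adds the late ring double bond, had 3332 and 2707 counts, 1.23-fold higher (1.17 to 1.30). The enzymes right after LSS stood close to their control: CYP51A1 had 6147 and 5911 counts, a ratio of 1.04, and MSMO1 18741 and 18209 counts, a ratio of 1.03 (1.01 to 1.05). NSDHL, EBP and DHCR7 lay at ratios of 1.12, 1.12 and 1.09, each with an interval above 1. TM7SF2, with 99.0 and 111 counts, and HSD17B7 lay within counting error.

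In the fatty acid step 4 of 9 genes were called higher, against 5.74% of all genes. They included genes of synthesis (ACLY, ACSS2), a desaturase (SCD) and an elongase (ELOVL6). ACLY had 14514 counts with overexpression and 11055 with pCDH, 1.31-fold higher (1.28 to 1.35). SCD had 118951 and 92545 counts, 1.29-fold higher (1.27 to 1.30). ELOVL6, which extends palmitate, had 3304 and 2670 counts, 1.24-fold higher (1.18 to 1.30). ACSS2 had 16202 and 13482 counts, 1.2-fold higher (1.17 to 1.23), just past the rule and not called with any of the 3 other scalings or in FPKM. FASN, just short of it, had 45147 and 38178 counts, 1.18-fold higher (1.17 to 1.2), and was called in FPKM. The genes of the polyunsaturated branch stayed within counting error, with FADS1 at 4241 and 4221 counts, FADS2 at 443 and 485 and ELOVL5 at 3764 and 3689. ACACA also did, at 57.0 and 54.0 counts.

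Among the regulators 0 of 7 were called in the overexpression comparison, against 5.74% of all genes called higher and 5.93% lower. SREBF2 had 11024 counts with overexpression and 10837 with pCDH. By the interval alone 1 of the 7 was higher, against 18.1% of all genes, and 2 were lower, against 16.2%. The median log2 ratio of the regulators was -0.03, against 0.20 for the enzymes. Of 17 other lipid synthesis genes tested 0 were called, against the same 5.74% and 5.93%, with a median of 0.04. With so few genes in each list, 0 calls are not far from these shares.

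Set side by side, the 2 comparisons, which share no library, differed in sign for most members. Of 27 members tested in both, 20 were below their control in the knockdown of MDA-MB-231 and above it in the overexpression in Ca1a, against 23.4% of 11349 genes. A count near this follows from the 2 comparisons taken singly, with 22 of 28 members below their control in the first and 25 of 27 above it in the second. It is therefore not a further result about single genes. By the rule of size, IDI1, SQLE and SCD were called lower in the first and higher in the second, as were 21 of all genes (0.185%). Across the members the log2 ratios of the 2 comparisons had a Pearson correlation of -0.33 and a Spearman correlation of -0.28 (27 genes, which are not independent), and across all genes -0.01 and 0.04. The sizes thus did not track each other closely: MSMO1 was called lower in the knockdown and stood at 1.03 in the overexpression, while ACLY stood at 0.972 and 1.31. The knockdown and the overexpression were made in different lines, so the difference between them was not tested. Both were small beside the 5.06-fold difference in summed FPKM between the 2 controls.

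**Figure D5:**
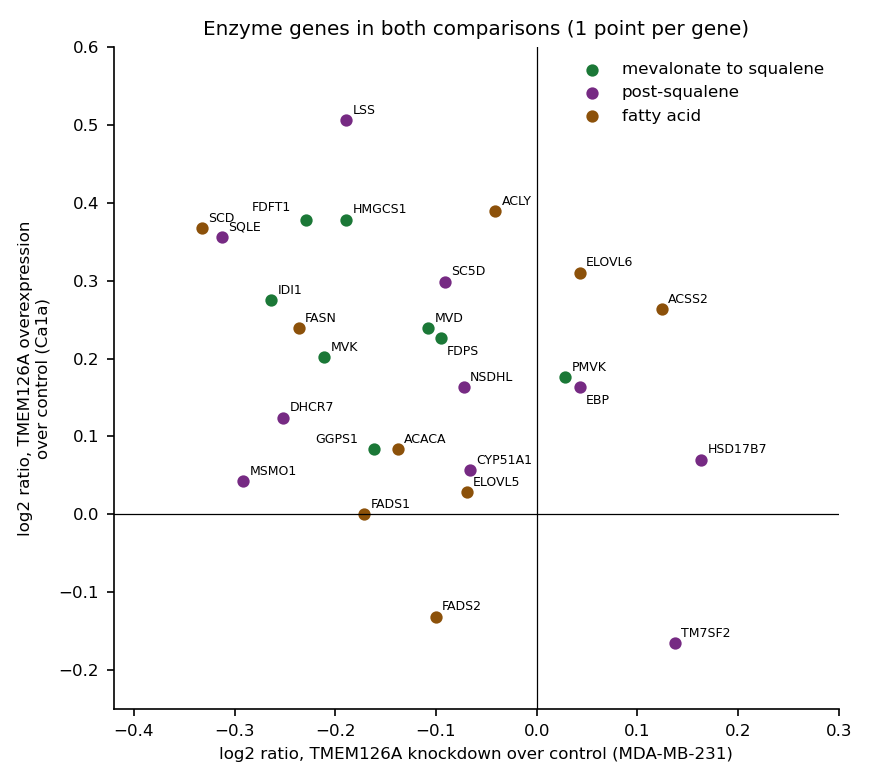
Log2 ratio of each enzyme gene in the knockdown comparison (x axis) against that in the overexpression comparison (y axis), 1 point per gene, coloured by pathway step and without ACAT2. Most points (20 of 27) lie in the upper left area, lower in the knockdown library and higher in the overexpression library.

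The authors' deposited tables gave none of the 28 members an adjusted p-value under 0.05 in the knockdown or the overexpression comparison. In the authors' deposited table of the knockdown, 4 of the 28 members had an unadjusted p under 0.05, against 5.00% of the genes tested here, and SCD had the lowest adjusted p, 0.654. In the authors' deposited table of the overexpression, 7 members did, also against 5.00%, and LSS had the lowest adjusted p, 0.423. Those p-values come from tables made without replicates.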

How the data were processed

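RNA-seq libraries of 4 cultures were analysed, 1 per group, so groups hold no replicates and no condition was tested. The submitters' processing notes name the tools HISAT2, Cufflinks, HTSeq and DESeq with the builds GRCh38.p5 and hg38, but the sources used here give no versions, roles or strand setting. For Ca1a the authors deposited read counts per gene, which the headers name as DESeq base means of single libraries. Their size factor of 1 was inferred from the smallest value of each column. The deposited MDA-MB-231 columns hold a signal, namely read counts over a size factor, and each of their values was a whole multiple of the smallest within a tolerance of 1e-06, so these multiples were taken as reads. The authors also deposited FPKM of all 4 libraries and, for each gene, a raw and an adjusted p-value, copied here as they stand. The 2 count tables were scaled separately, so folds across lines were taken only in FPKM or per total reads. For ACAT2, its neighbours, ACACA and ACACB, normalized counts of both lines are printed side by side without a common scale.

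Intervals of ratios are 95% Clopper-Pearson intervals of the conditional binomial. Reads had no molecular identifiers and are not independent molecules, so the intervals hold counting error only. Knockdown and overexpression calls used log2(count + 1), 1.2-fold and a mean of at least 20. Control calls used log2(FPKM + 0.1), 2-fold and a mean of at least 1 FPKM, and printed folds are ratios without the pseudocount. All 28 members may be named, and from the lists of 7 and 18 other genes at most 4 called genes per comparison. One such gene is not reported here. The neighbours, relatives of members and uncalled genes that are named beside them were added after their values were seen, as were the motif examples. The members and lists were chosen with earlier results of these data known. Positions and overlaps come from GENCODE release 29 (GRCh38), matched by Entrez ID, and promoters from RefSeq (GRCh38.p14). There, 9 of the 28 members overlap another protein-coding gene: ACACA, ACAT2, ACSS2, CYP51A1, FADS1, FADS2, GGPS1, MVK and TM7SF2. The effect of these overlaps on the counts was not tested. The call rules were also run on simulated data. No outcome of that run is reported here, so nothing is concluded from it about calls near 1.2-fold. Alternatives were FPKM, total read, median and TMM scaling, pseudocounts, folds and filters. TMM factors came from edgeR 4.0.16 in R 4.3.3, and the rest from python 3.11.15 (scipy 1.17.1, pandas 2.3.3, numpy 2.4.6, matplotlib 3.10.9).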

Additional observations from a re-analysis of the deposited data

How the results depend on the processing

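The number of members called depended mainly on the fold. In the knockdown comparison 4 members were called lower at 1.2-fold, 10 at 1.1-fold (7.85% of all genes), 13 by the counting interval alone (11.3%), 7 in FPKM (6.88%), and 0 at 1.5-fold (0.745%) or at 2-fold (0.143%). Members called higher there numbered 0, and 1 by the interval alone. In the overexpression comparison 10 members were called higher at 1.2-fold, 16 at 1.1-fold (13.5%), 19 by the interval alone (18.1%), and 0 at 1.5-fold (1.27%) or at 2-fold (0.256%). The remaining 50 alternative counts, those between the controls included, stayed within 1.5 times the reported count. The same 4 genes remained called lower with total read, TMM and median scaling, and IDI1 was lost with a pseudocount of 5. Of the 10 called higher, 7 were shared with FPKM, which dropped SC5D, ACSS2 and ELOVL6 and added PMVK, MVD and FASN. Among the alternative log2 ratios of single members, 345 stayed close to the reported value, 47 moved, and 0 called ratios changed sign. Scaling by total reads, TMM or the median shifted the median log2 ratio of all genes by less than 0.1 in both treatments. No paired analysis was possible because each group held 1 library. Depth limits TM7SF2, ACACA and, in Ca1a, ACAT2, whose few reads leave wide intervals.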
